A study of Caenorhabditis elegans with 2 samples.

Results

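Peaks of the zinc finger protein ZNF-207 at autosomal tRNA genes were described in young adult Caenorhabditis elegans. A peak was a member when it lay on 1 of the 5 autosomes in the pooled ce11 list and its summit fell within 200 bp of an annotated tRNA gene. The rule gave 304 peaks of the 30000 in the pooled list, or of the 24653 pooled peaks on the autosomes. They lay beside 257 of the 336 autosomal tRNA genes. The assay was chromatin immunoprecipitation followed by sequencing (ChIP-seq), in which crosslinked chromatin is sheared and the fragments bound by 1 protein are recovered and sequenced. The animals were hermaphrodites of strain xtl1186, harvested 50 hours after the L1 starvation that synchronized them, and carried an insertion that fuses a C-terminal GFP-FLAG tag to ZNF-207, the product of znf-207 (B0035.1). The precipitation used an anti-GFP antibody, and the 2 biological replicates form a single group. No control library was analysed here, and the promoter that drives the tagged gene is not given in the sources used here. Chromatin came from whole animals, so binding in few cells and weak binding in many cells cannot be told apart at any peak.

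Transfer RNA genes are short genes transcribed by RNA polymerase III. Their promoter lies inside the gene, in an A box near the start and a B box near the end, both of which are bound by the factor TFIIIC. TFIIIC then places TFIIIB upstream of the start, and TFIIIB recruits the polymerase, which stops at a run of T just after the gene. Because the promoter is part of the transcribed sequence, genes of identical sequence carry identical boxes, and nematode genomes hold many such copies, often inside introns of protein-coding genes. A tRNA gene is named after the amino acid its product carries, its isotype.

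The following genes show what these promoters look like where ZNF-207 peaks were strong, and where the annotated gene had neither a peak nor a matching B box. Each is given in ce11 coordinates, 5′ to 3′ on the strand of the gene, as read from the RefSeq WBcel235 genome. Capitals mark an exact match of the A box core (TGGCNNAG or TAGCNNAG) and of the B box (GTTCNANNC). The gene T23F1.t2 lies at chrV:15465225-15465296 on the minus strand, W09G10.t3 at chrII:3519086-3519157 (minus), T03E6.t1 at chrV:16592237-16592308 (minus), F57F5.t1 at chrV:12002176-12002260 (plus), C14B9.t2 at chrIII:8109603-8109724 (plus) and Y7A9D.t2 at chrIV:16389211-16389282 (minus). The genes with no peak are Y40H7A.t1 at chrIV:15187344-15187415 (plus) and ZK1010.t1 at chrIII:13009423-13009499 (plus).
T23F1.t2 (Pro): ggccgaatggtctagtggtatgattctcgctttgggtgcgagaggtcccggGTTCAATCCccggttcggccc
W09G10.t3 (Thr): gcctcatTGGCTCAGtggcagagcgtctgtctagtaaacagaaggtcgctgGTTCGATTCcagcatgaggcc
T03E6.t1 (Gln): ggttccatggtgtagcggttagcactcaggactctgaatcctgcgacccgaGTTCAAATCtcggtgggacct
F57F5.t1 (Ile): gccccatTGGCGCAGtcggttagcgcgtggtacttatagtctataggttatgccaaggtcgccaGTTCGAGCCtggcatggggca
C14B9.t2 (Leu): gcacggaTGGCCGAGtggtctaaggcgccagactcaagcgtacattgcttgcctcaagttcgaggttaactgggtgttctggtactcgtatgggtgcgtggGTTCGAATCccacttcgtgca
Y7A9D.t2 (Ala): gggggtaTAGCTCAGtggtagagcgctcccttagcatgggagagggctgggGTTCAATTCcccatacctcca
Y40H7A.t1 (His, no peak): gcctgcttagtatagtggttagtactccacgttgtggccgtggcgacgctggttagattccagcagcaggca
ZK1010.t1 (Ser, no peak): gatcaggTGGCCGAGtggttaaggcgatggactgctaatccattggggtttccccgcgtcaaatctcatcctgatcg

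A second set shows pairs of genes whose annotated sequence was the same, letter for letter, while only 1 gene of each pair had a peak. The flanks printed are the 50 bases just upstream of each gene, on its strand. Among the His genes, W09G10.t1 (chrII:3521487-3521558, minus) had a thresholded peak and Y65A5A.t4 (chrIV:16400896-16400967, plus) had none. Among the Thr genes, C16C8.t2 (chrII:3439219-3439290, minus) had a thresholded peak and F36D4.t2 (chrV:9407040-9407111, minus) had none. The peak of C16C8.t2 is shared with the Lys gene C16C8.t1, to which its summit is nearer. The Pro gene R11G10.t1 (chrV:13509693-13509764, plus) had no peak, although its sequence is that of T23F1.t2, printed above.
W09G10.t1 and Y65A5A.t4 (His): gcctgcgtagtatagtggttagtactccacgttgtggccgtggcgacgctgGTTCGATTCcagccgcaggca
C16C8.t2 and F36D4.t2 (Thr): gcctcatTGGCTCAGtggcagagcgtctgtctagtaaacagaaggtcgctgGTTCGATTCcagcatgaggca
upstream of W09G10.t1: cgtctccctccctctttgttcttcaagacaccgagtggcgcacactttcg
upstream of Y65A5A.t4: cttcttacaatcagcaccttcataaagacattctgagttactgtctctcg
upstream of C16C8.t2: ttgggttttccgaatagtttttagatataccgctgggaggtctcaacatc
upstream of F36D4.t2: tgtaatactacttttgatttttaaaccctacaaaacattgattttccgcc
upstream of T23F1.t2: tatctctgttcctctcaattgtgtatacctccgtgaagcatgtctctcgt
upstream of R11G10.t1: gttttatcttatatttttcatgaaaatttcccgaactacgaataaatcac
The flank of W09G10.t1 was 44% A and T and that of Y65A5A.t4 60%. The flank of C16C8.t2 was 58% and that of F36D4.t2 70%, and the flank of T23F1.t2 was 56% and that of R11G10.t1 74%. These pairs were chosen for their difference in peaks, so the difference itself is a description.

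The peaks at autosomal tRNA genes stood high in the pooled list. The signal is the authors' own value for a peak, on the scale of its list, and the rank counts from the highest signal in that list. The median signal of the 304 peaks was 54.5 (quartiles 37.4 and 78.1, range 16.7 to 231), against 25.4 for the other 24349 autosomal peaks (quartiles 20.3 and 34.4). The median rank was 2389.5 (range 57 to 29503), against 15077 for the other autosomal peaks. The set that the authors kept after thresholding by the irreproducible discovery rate (IDR), which keeps peaks that rank alike in replicates, held 750 peaks. Of the tRNA peaks 56 were in it, or 18.4% (95% Wilson interval 14.5 to 23.2%), against 2.25% of all autosomal pooled peaks. The 750 kept peaks were exactly those of rank 1 to 750 in the pooled list. This share therefore restates the order by signal and does not separately show that the peaks repeat between replicates. The highest −log10 q-value of the list, 2.47, was reached by 112 tRNA peaks, or 36.8%, against 5.11% of all autosomal pooled peaks. With 1 group there is no test between conditions, and the intervals cover the counting of peaks only.

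The share of tRNA peaks was highest among the strongest autosomal peaks and far lower in the weak end of the list. Among autosomal peaks of rank 1 to 750, 56 of 555 were at a tRNA gene (10.1%, interval 7.85 to 12.9%). In ranks 751 to 1500 the share was 8.36%, in ranks 1501 to 3000 it was 4.98%, and in ranks 3001 to 6000 it was 2.13%. It was 0.623% in ranks 6001 to 12000, 0.321% in ranks 12001 to 20000 and 0.342% in ranks 20001 to 30000. The top 3000 thus held 171 of the 304 tRNA peaks (56.3%), and 37 (12.2%) had a rank over 15000.

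**Figure D1:**
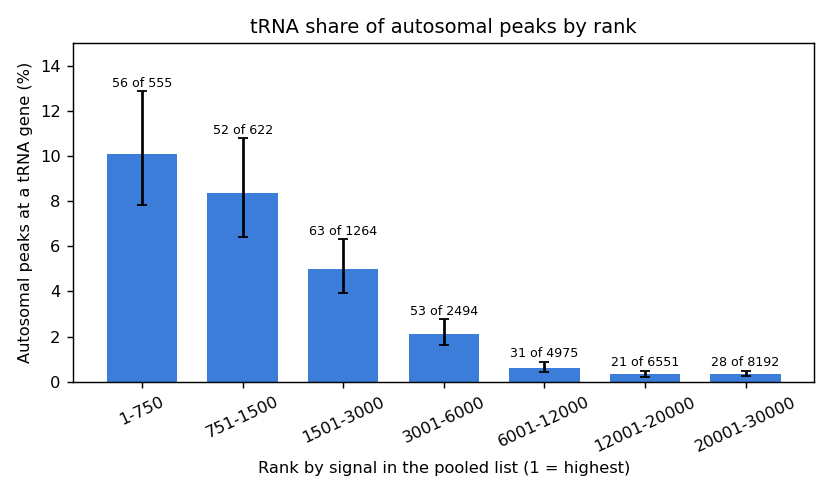
Share of autosomal pooled peaks with a summit within 200 bp of a tRNA gene (vertical axis, percent), by rank of signal in the pooled list (horizontal axis). Bars carry 95% Wilson intervals and the counts behind them; the share was 10.1% in ranks 1 to 750 and 0.342% in ranks 20001 to 30000.

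Counted by gene, 257 of the 336 autosomal tRNA genes had a pooled peak (76.5%, interval 71.7 to 80.7%) and 65 had a thresholded one (19.3%, interval 15.5 to 23.9%). A summit lies near many places in so long a list, so the same rule was applied to all autosomal windows of 72 bases, the median length of these genes. Of such windows 12.8% had a pooled summit within 200 bp and 0.310% a thresholded one. Other short noncoding genes of the autosomes had lower shares with a pooled peak, at 51.1% of 313 snoRNA genes, 46.8% of 126 snRNA genes, 20.3% of 187 miRNA genes and 6.70% of 15201 piRNA genes. The share with a thresholded peak was 18.5% for snoRNA genes, whose products guide RNA modification, close to the 19.3% of tRNA genes. The shares for the other classes were 11.1% for snRNA genes, 2.67% for miRNA genes and 0.0329% for piRNA genes. These classes differ in gene length, with medians of 129, 109, 96 and 21 bases in the same order of classes. Counted by peak, 59 of 185 autosomal peaks at a snoRNA gene and not at a tRNA gene were thresholded (31.9%), against 18.4% of tRNA peaks. Of these snoRNA peaks 42.2% reached the highest −log10 q-value, and their highest signal was 345. Their median signal of 48.2 and median rank of 3257 were weaker than those of tRNA peaks. A high place was thus not particular to tRNA genes.

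The tRNA genes of the X chromosome had the stronger peaks of this gene class. The autosomal genes had a thresholded peak in 19.3% of cases, against 38.0% of the 276 X-linked genes (interval 32.5 to 43.9%). The share with any pooled peak was 76.5% on the autosomes and 82.2% on X (interval 77.3 to 86.3%). The median rank was 2389.5 for the autosomal peaks and 1400 for the 260 X-linked peaks. Within the autosomes, the share of genes with a thresholded peak was 31.6% on chromosome II (18 of 57, interval 21.0 to 44.5%), 18.8% on III (12 of 64), 17.9% on V (14 of 78), 16.7% on I (11 of 66) and 14.1% on IV (10 of 71). The intervals of these 5 shares overlap. The share differed little along the chromosomes, as a pooled peak was found at 73.6% of the 110 genes in the central of 3 equal parts of their chromosome and at 77.9% of the 226 outside it.

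The strongest member was the peak between T23F1.t2 (Pro, gene ID WBGene00014532) and T23F1.t1 (Lys) on chromosome V. Its summit at 15465194 lay 31 bp beyond the end of T23F1.t2 and in the promoter window of pqn-71. Such a window covers 500 bp before and 200 bp after the start of a protein-coding gene. The signal of the peak was 231 in the pooled list, 149 in that of replicate 1 and 78.5 in that of replicate 2, and it ranked 57, 57 and 86 in these lists. The second was at W09G10.t3 (Thr, WBGene00023162) on chromosome II, with the summit at 3519163, 6 bp upstream of the gene and near W09G10.t2 (Lys). Its pooled signal was 172, and it ranked 122 in the pooled list, 204 in replicate 1 and 97 in replicate 2. These 2 peaks stood among the strongest peaks of both replicates.

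Next in order came F56F3.t1 (Arg, chromosome III), T03E6.t1 (Gln, V) and F47G6.t1 (Arg, I). The F56F3.t1 peak had a pooled signal of 159 (rank 155) and ranked 105 in replicate 1 and 426 in replicate 2. The T03E6.t1 peak had a pooled signal of 149 (rank 184) and ranked 244 in replicate 1 and 106 in replicate 2. The F47G6.t1 gene lies in an intron of spe-15, a myosin gene required in sperm, and its peak had a signal of 141 (rank 201) with ranks of 265 and 153 in replicates 1 and 2. The order of these 5 peaks differed between the replicates, while each stayed within the 750 strongest of both lists.

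The others of the 20 strongest members had pooled signals of 114 to 139 and pooled ranks of 213 to 375. They comprised F10C1.t1 and T04D3.t2 (Gly), T21B4.t1 and F57F5.t1 (Ile), B0350.t1 and F49C5.t4 (Lys), W09D6.t2 (Pro), C37A2.t1 (Cys), C14B9.t2 and C04A2.t1 (Leu), sup-5 (Trp), Y7A9D.t2 (Ala), F22G12.t1 (Val), C24H11.t1 (Thr) and Y54G2A.t3 (Asp). The gene sup-5 encodes a tryptophan tRNA and is known for alleles that suppress amber stop codons. Its peak, in an intron of fli-1, had a signal of 122 (rank 296) and ranked 656 in replicate 1 and 163 in replicate 2. The peak at C04A2.t1 ranked 962 in replicate 1 and 113 in replicate 2, and that at Y7A9D.t2 ranked 326 and 1042. The strongest member on chromosome IV was at B0350.t1, with a pooled signal of 137 and ranks of 321 and 240 in replicates 1 and 2.

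At the other end, the weakest members were at Y69A2AR.t2 (Glu) with a signal of 16.9, C06G4.t1 (Phe) with 16.8 and Y51H4A.t5 (Gly) with 16.7. None of these 3 peaks was matched in both replicates. Each was the weaker of 2 summits at its gene, and the stronger ones had signals of 78.8 (rank 988), 21.0 and 24.5 in this order. The last members inside the thresholded set were at F41A4.t1 (Asp), C52E12.t2 (Thr) and T28D6.t1 (Val), with signals of 90.7, 89.3 and 89.1. The first outside it were at Y105C5B.t1 (Asp), R04F11.t1 (Asn) and C05G6.t1 (Val), with 87.8, 87.7 and 87.7. The 3 peaks nearest to the distance limit inside it were second summits. That at C04A2.t1 lay 196 bp away with a signal of 51.7, and those at C56G7.t1 (43.3) and W07G4.t1 (18.7) each lay 191 bp away. The stronger summits of these genes had signals of 121, 102 and 37.4 in the same order. Just outside the limit lay summits 204 bp from ZK970.t1 (52.7), 207 bp from Y102E9.t1 (36.3) and 211 bp from B0513.t1 (56.2). The gene B0513.t1, a His gene, was therefore counted as having no peak.

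Summits sat on and around the genes rather than at 1 fixed point. The median position was 31 bases downstream of the first base of the nearest gene (quartiles −23.25 and 98), and the genes themselves were 68 to 122 bases long. Of the 304 summits 105 (34.5%) lay upstream of the gene, 106 (34.9%) inside it and 93 (30.6%) downstream. Inside the gene or within 50 bp of it were 211 summits (69.4%), and the fullest bin of 25 bases was the first of the gene, with 41 summits. Of the 56 thresholded summits 23 (41.1%) were inside the gene, against 51 of 93 thresholded summits (54.8%) on X. Peaks with a summit inside the gene had a median rank of 1685, those upstream 2265 and those downstream 4259.

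**Figure D2:**
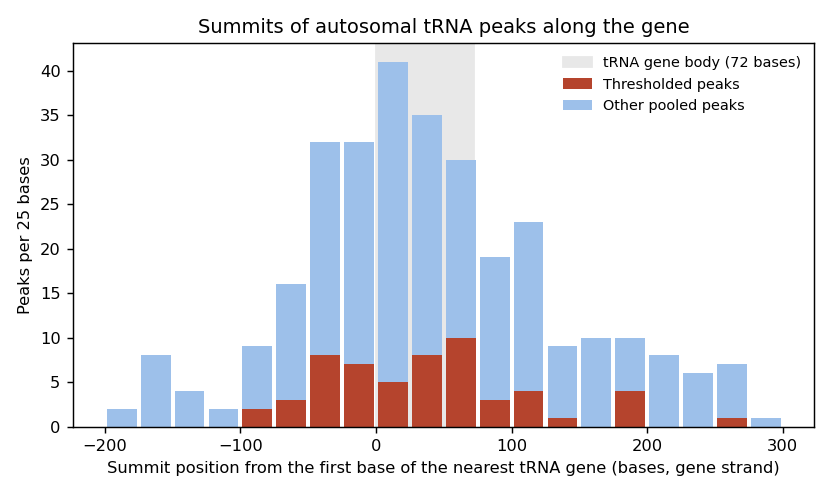
Position of the 304 summits along the nearest autosomal tRNA gene (horizontal axis, bases from its first base on its strand), as peaks per 25 bases. The whole bar counts all members and its red part the thresholded ones; the grey band is a gene of 72 bases, and the fullest bin, at 0 to 24, holds 41 summits.

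A single tRNA gene often had a pair of summits. Of the 257 genes with a peak 190 had 1 summit within 200 bp and 67 had 2. The 2 summits of such a gene were 199 to 290 bp apart, with a median of 203. All 304 members had the same interval width of 460 bp, and the median gap lay close to the smallest one. Whether this spacing comes from the peak calling or from 2 bound places was not tested. The strongest summit of each gene made 238 distinct peaks with a median rank of 1754, and 56 of these (23.5%) were thresholded. The 66 further peaks had a median rank of 9549.5, and 0 of them were thresholded. Among strongest summits the median rank was 1477 upstream, 1671.5 inside and 2812 downstream of the gene. Summits within 200 bp of 2 tRNA genes were stronger, with 9 of 20 thresholded (45.0%, interval 25.8 to 65.8%), against 47 of 284 summits near 1 gene (16.5%, interval 12.7 to 21.3%). These included T23F1.t1 with T23F1.t2, W09G10.t2 with W09G10.t3 and the Pro pair W09D6.t1 with W09D6.t2 (signal 129, rank 258, and ranks 386 and 242 in replicates 1 and 2). A peak of this kind counts for both of its genes.

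Most autosomal tRNA genes lie in introns, and a host gene went with a similar share of peaks. An intron of a protein-coding gene held 188 genes, of which 146 had a pooled peak (77.7%, interval 71.2 to 83.0%), against 105 of 139 intergenic genes (75.5%, interval 67.8 to 81.9%). The share with a thresholded peak was 16.5% for intronic genes (31 genes) and 23% for intergenic genes (32 genes), with overlapping intervals. By peak, the intronic ones had a median rank of 3041.5 and the intergenic ones 2000.5. Where the tRNA gene was on the opposite strand from its host, 16 of 77 genes (20.8%) had a thresholded peak, against 15 of 111 (13.5%) on the same strand. Any pooled peak was found at 72.7% of genes on the opposite strand and 81.1% of those on the same strand, which is the other order. The strongest intronic members were at F47G6.t1, at T21B4.t1 on the opposite strand in the collagen gene col-85 (signal 138, rank 214) and at W09D6.t2 in rsa-2. The members in exons numbered 8, among them those at K02D7.t1 in grl-26 (101, rank 539) and K04A8.t2 in lipl-4 (94.9, rank 636).

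Members that also fell in the promoter window of a protein-coding gene were the stronger ones. Of 48 such peaks 18 were thresholded (37.5%, interval 25.2 to 51.6%), against 38 of 256 peaks outside these windows (14.8%, interval 11 to 19.7%). Their median rank was 1308, against 2568 outside. Outside the windows the thresholded share was still above the 2.25% of all autosomal peaks, a set that includes peaks inside such windows. How many autosomal peaks in general lie in these windows, or are thresholded there, is not given here. Whether the difference is particular to the members is therefore not known. Besides pqn-71 and clec-126, examples of these windows are those of K05F1.6 at F10C1.t1, srh-269 at T03E6.t1, gcy-33 at F57F5.t1 and kvs-3 at F44A2.t1. The start of the nearest protein-coding gene was at a median of 1039 bp from genes with a thresholded peak, 1639 bp from those with a weaker peak and 1647 bp from those with none. Which of the neighbouring genes a peak in such a window belongs to was not tested. A snoRNA gene lay within 200 bp of 1 member, at C16D9.t4 (Tyr), and an snRNA gene within 200 bp of 1 other, at M01E5.t1 (Lys, signal 103, rank 510).

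A larger share of these peaks than of autosomal peaks in general was found in both replicates. A summit within 200 bp was found in the list of replicate 1 for 286 of the 304 members, in that of replicate 2 for 251 and in both for 236 (77.6%, interval 72.6 to 82.0%), against 35.4% of all autosomal pooled peaks. For 3 members neither list had one. The list of replicate 1 held 30000 peaks and that of replicate 2 held 25036, so the latter offered fewer summits to match. All 56 thresholded members were matched in both lists, which the IDR threshold itself favours. The match was to one of the 750 strongest peaks of replicate 1 for 52 members (17.1%), against 2.37% of all autosomal peaks, and to one of replicate 2 for 47 (15.5%), against 2.47%. Both held for 27 members. The pooled list contains the reads of both replicates, so these shares do not come from independent data. The members also stood higher in the pooled list, with a median rank of 2389.5 against 14937 for all autosomal peaks. No comparison at like rank was made.

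The size of the signal agreed between the replicates only in part. Spearman's rho between the signals of the replicates was 0.488 over the 236 matched members, against 0.397 over the 8479 matched other autosomal peaks. Among the 56 thresholded members alone it was 0.121, and among the 180 matched members outside the thresholded set it was 0.125. Each of these sets covers only part of the range of pooled signals. Over the 196 matched strongest summits of each gene it was 0.616. The ranks in the replicates were within 2-fold for 92 of the 236 members (39.0%) and over 10-fold apart for 20, of which 5 were the strongest summit of their gene. Of the 8479 other autosomal peaks 4267 (50.3%) were within 2-fold and 408 over 10-fold apart. These others lay lower in both lists, with median ranks of 9420 and 8650, against 1868.5 and 2492.5 for the matched members. Ranks far down a list can differ only by a small fold before the list ends, so this measure cannot compare the 2 sets. The points in these correlations come from the same 2 libraries, and 38 members in each replicate shared their matched replicate peak with another member.

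**Figure D3:**
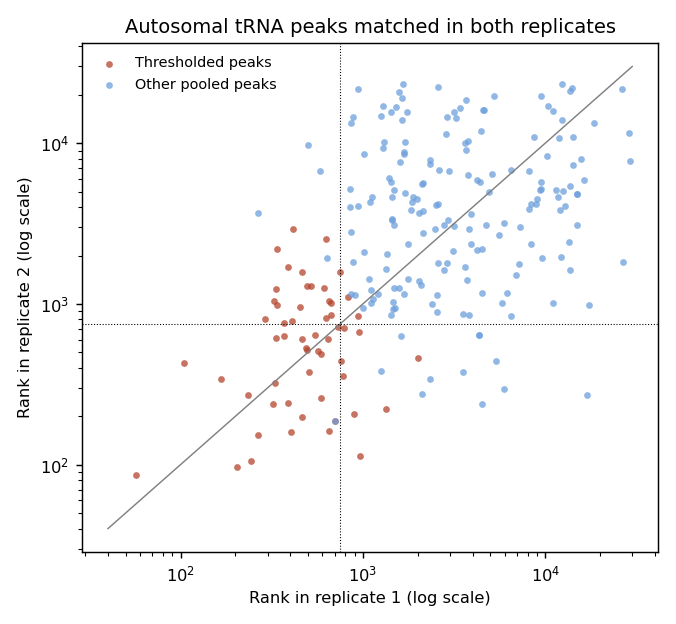
Rank in replicate 1 (horizontal axis) against rank in replicate 2 (vertical axis), both on log scales with low ranks the strongest, for the 236 members matched in both lists. Red points are the thresholded members; the diagonal marks equal ranks and the dotted lines rank 750, and both ranks were within 750 for 27 members.

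Single members show both kinds of behaviour. The peak at C14B9.t2 (Leu, pooled signal 124) ranked 328 in replicate 1 and 323 in replicate 2. Close agreement was also found at C10G8.t1 (Gln; 729 and 715), F33G12.t1 (Ile; 495 and 515), K08E7.t1 (Lys; 640 and 603) and K04A8.t3 (Cys; 486 and 535). The largest differences were at second summits and at peaks off the thresholded set. The second summit of T21B4.t1 ranked 26974 in the pooled list, 16902 in replicate 1 and 273 in replicate 2, where the matched peak was the one already matched to its first summit. The peak at K11H3.t2 (Ser, pooled rank 1077) ranked 503 in replicate 1 and 9789 in replicate 2. The second summit of W09G10.t2 (Lys, pooled rank 1012) ranked 5924 and 297. It lay nearer to this gene than the stronger summit, which is shared with W09G10.t3. A second summit at W02G9.t2 (Thr) ranked 943 in replicate 1 and 21827 in replicate 2.

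All 21 isotypes, which include selenocysteine, had at least 1 gene with a pooled peak. The share of genes with a peak was highest for Glu (17 of 18), Asp (14 of 15) and Val (15 of 17) and lowest for His (6 of 11), Ser (12 of 21) and Pro (14 of 22), leaving out the single selenocysteine gene. The order by thresholded peaks was another one. Cys genes led it with 4 of 6, at C37A2.t1 in cye-1, the cyclin E gene (signal 127), K04A8.t3 in twk-10 (102), F32B4.t1 (93.1) and F53F8.t1 (91.8). Arg genes followed with 6 of 17, Thr with 6 of 20, and Ala with 6 of 21 and Lys with 8 of 28 were alike. Glu, first for any peak, had 1 thresholded gene of 18. With so few genes per isotype most intervals of the thresholded share overlap. Those of Ser, Glu and Gly, which end at 22.7%, 25.8% and 26%, do not reach that of Cys. Cys was singled out after the values were seen, and 5 of its 6 genes have the same sequence. The order was not the same on X, where 1 of 7 Cys genes was thresholded (14.3%). The X-linked shares were 10 of 18 for Ser (55.6%), 8 of 23 for Glu (34.8%) and 8 of 20 for Gly (40%).

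Of 8 Phe genes 7 had a pooled peak and 0 a thresholded one. The upper Wilson limit of 32.4% includes the 19.3% of all autosomal tRNA genes. The signals at the strongest summits were 63.4 at Y39B6A.t9, 62.3 at Y53C12A.t1, 44.1 at Y66D12A.t1, 33.5 at F22B7.t3, 29.9 at ZC412.t1, 23.4 at F22B7.t4 and 21.0 at C06G4.t1. The first pair lay close to the median of 62.2 over the strongest peaks of all autosomal tRNA genes, and the other 5 lay below it. The only selenocysteine gene, K11H12.t1, whose product inserts selenocysteine at a recoded stop codon, had a signal of 47.7 (rank 3356) and ranked 5596 in replicate 1 and 2694 in replicate 2. Of the 7 Trp genes, sup-5 had the thresholded peak, sup-24 and rtw-6 had signals of 72.7 and 63.7, and sup-29 had no peak.

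**Figure D4:**
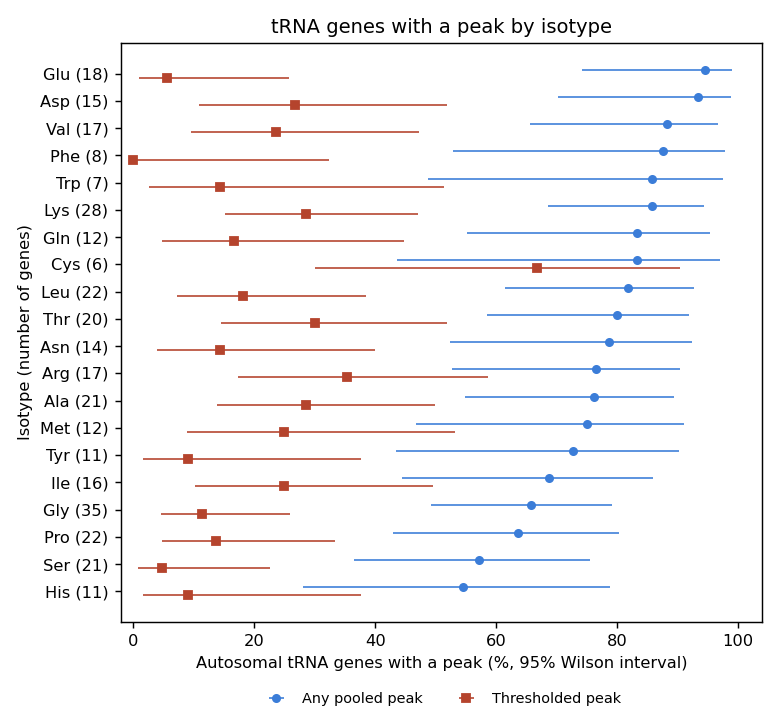
Autosomal tRNA genes with any pooled peak (blue circles) and with a thresholded peak (red squares), in percent with 95% Wilson intervals, for 20 isotypes with the number of genes in brackets; the single selenocysteine gene is left out. Glu is first for any peak at 94.4% and Cys first for thresholded peaks at 66.7%.

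The share of genes with a peak was higher for genes with many identical copies in the genome. Copies were counted as exact matches of the gene sequence on both strands of the whole genome. Of the 164 genes with 10 or more copies 145 had a pooled peak (88.4%, interval 82.6 to 92.5%), against 62 of 87 genes with 2 to 9 copies (71.3%, interval 61.0 to 79.7%) and 50 of 85 genes with 1 copy (58.8%, interval 48.2 to 68.7%). The share with a thresholded peak was 23.2% at 10 or more copies, 21.8% at 2 to 9 and 9.41% at 1. Among the peaks themselves the order was not the same, with median ranks of 2542 at 10 or more copies, 1826 at 2 to 9 and 2502 at 1. Whether reads that match several copies were kept before peaks were called is not stated in the labels or file notes, and its part in these shares was not tested.

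Identical genes differed widely in their peaks. The 336 autosomal genes comprised 137 distinct sequences, of which 43 occurred in 2 or more autosomal genes and covered 242 genes. A thresholded member was present in 29 of these 43 families, and all 29 also had a gene without a thresholded peak. In 18 of the 29 at least 1 gene had no pooled peak at all. The 11 families of 8 or more genes held 118 genes, of which 106 had a pooled peak and 30 a thresholded one.

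The family of 18 Gly genes had peaks at 14 genes, with ranks of 337 at T04D3.t2 to 16158 at Y51H4A.t5, and none at C12C8.t3, C12C8.t4, K04C2.t1 and Y51H4A.t3. The family of 15 Lys genes had thresholded peaks at 6 genes, of which W09G10.t2 (signal 172) and B0350.t1 (137) were the strongest. The others of these 6 were K08E7.t1 (109), M01E5.t1 (103), C56G7.t1 (102) and C16C8.t1 (101), and F56F4.t2 had no peak. The peak of W09G10.t2 with a signal of 172 is shared with the Thr gene W09G10.t3, to which its summit is nearer. The summit nearest to W09G10.t2 had a signal of 77.8 and was not thresholded. In the Pro family of T23F1.t2 the signals were 231 there, 129 at the W09D6.t1 and W09D6.t2 pair, 70.2 at F02H6.t1 and 31.7 at T22F3.t1, with none at R11G10.t1, T22F3.t2 and ZK970.t2. The Cys family of 5 genes had 4 thresholded genes and 1, ZC412.t2, with no peak. The family of 5 Phe genes had 0 thresholded genes, with ranks of 4085 to 21419.

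**Figure D5:**
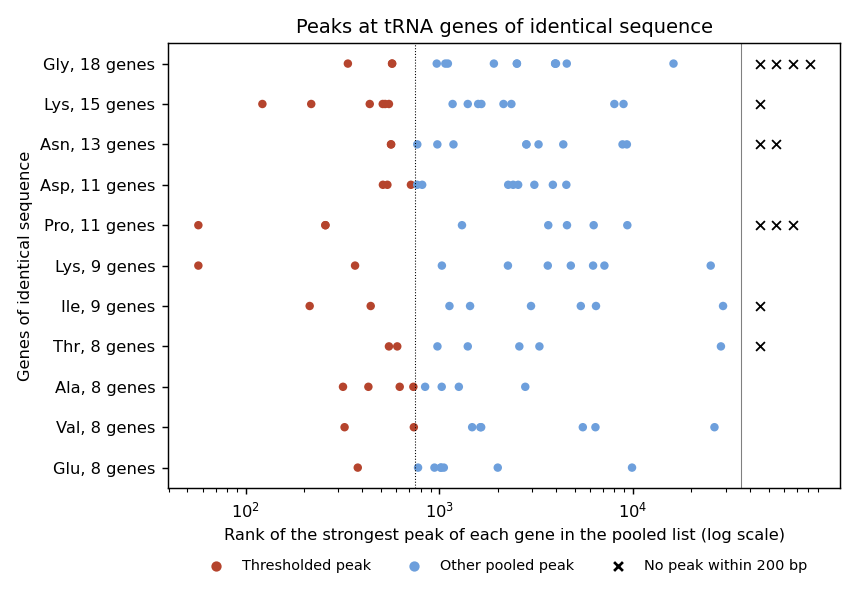
Rank of the strongest peak of each gene in the pooled list (horizontal axis, log scale) for the 11 families of 8 or more autosomal tRNA genes of identical sequence, 1 row per family. Red points are thresholded peaks, the dotted line marks rank 750 and crosses stand for genes with no summit within 200 bp; each family has red and blue points.

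The share of genes with a peak depended on the form of the B box that was searched. The short form was present in 319 of the 336 genes (94.9%), and the other 17 had no match. A pooled peak was found at 6 of the 17 (35.3%, interval 17.3 to 58.7%), against 251 of the 319 (78.7%, interval 73.9 to 82.8%). The 6 were the Met genes Y22D7AL.t3, T15B12.t1, F14B6.t1 and F14B6.t2, the Pro gene F14B4.t2 and the Glu gene Y69A2AR.t2. The peak of Y22D7AL.t3 was shared with the neighbouring Glu gene Y22D7AL.t4 (signal 113, rank 379). Of the genes with no match 8 had 1 copy, against 77 of those with the B box. Among genes with 1 copy a peak was found at 1 of 8 without the B box (interval 2.24 to 47.1%) and at 49 of 77 with it (63.6%). Among genes with 2 or more copies it was found at 5 of 9 without the B box and at 202 of 242 with it (83.5%). The His gene Y40H7A.t1, which had no peak, differed from W09G10.t1 at 3 of 72 bases, G7T, C55A and C65A, counted from 1 at the 5′ end with the base of W09G10.t1 first. Of these C55A lies in the B box. A longer B box, which asks for more fixed letters, gave another picture, with a pooled peak at 147 of the 190 genes without it (77.4%), against 110 of the 146 with it (75.3%). The share with a thresholded peak was 23.7% without the longer form and 13.7% with it, and 11.8% without the short form and 19.7% with it. A missing match says only that these letters are not in the gene.

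The short B box was found in 96.9% of the 65 genes with a thresholded peak, 97.9% of the 192 with a weaker peak and 86.1% of the 79 with none. The A box core was found in 56.9% (interval 44.8 to 68.2%), 41.1% and 45.6% (interval 35.0 to 56.5%) of the same groups. A longer A box was found in 21.5%, 20.8% and 10.1% of them, and 54 of the 62 genes with it had a pooled peak (87.1%). The core was chosen after the data were seen, and the order of the groups depends on the form. A run of TTTT in the 30 bases after the gene was found in 98.5%, 100% and 96.2% of the groups. Of the 4 genes without such a run 1 had a pooled peak, against 256 of the 332 with it (77.1%). The gene with a peak but no such run was W09G10.t3, and its peak of rank 122 is shared with W09G10.t2, which had the run. W09G10.t3 differed from C16C8.t2 only by A72C, with the base of C16C8.t2 first. In windows of 200 bases on each side of the summit, read on both strands, the B box was found at 93.4% of the member summits, against 13.4% of the other autosomal summits. The A box core was found at 50.0% of the member summits and 17.4% of the others. As the members lie at tRNA genes by the rule, these shares show how specific the letters are and nothing on what ZNF-207 recognises. The 50 bases upstream of the gene had a median of 54% A and T at genes with a thresholded peak, 54% at those with a weaker peak and 60% at those with none.

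Other genes that RNA polymerase III transcribes differed from each other. The RNA of ribonuclease P, which trims the 5′ end of tRNA precursors, is encoded by rpr-1, whose peak had a signal of 206 (rank 72). The signal recognition particle RNA gene srpr-1.1 had 113 (rank 393) and the ribonuclease MRP RNA gene mrpr-1 had 95.3 (rank 632), and these 3 were thresholded. The second signal recognition particle gene srpr-1.2 had 83.8 (rank 855). Of the annotated 5S rRNA genes, named rrn-4, rrn-4.15 had a signal of 45.2 (rank 3855) and the other 15 had no pooled peak. In total, 5 of these 20 noncoding genes had a pooled peak. The 5S genes lie in near-identical copies, so an absent peak there is uncertain.

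Among 24 protein-coding genes listed around the RNA polymerase III machinery, 10 had a pooled summit in their promoter window (41.7%), against 26.2% of all nuclear protein-coding genes. A thresholded one was found at 2 of them (8.33%), against 1.64% of all. They were rpac-19 (signal 94.2, rank 648), a subunit shared by RNA polymerases I and III, and rpc-2 (92.1, rank 687), the second largest subunit of RNA polymerase III. The TATA-binding protein gene tbp-1 and the TFIIIC subunit gene tftc-5 each had a weak summit with a signal of 31.8. The largest subunit gene rpc-1, the TFIIIC genes tftc-1 and tftc-3, the TFIIIB gene brf-1 and mafr-1, which encodes the repressor Maf1, had none. The list also held subunits shared with RNA polymerase II and I, rpb-9 and trpp-8 of other complexes, and genes of the snRNA activating complex.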

How the data were processed

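The samples were 2 biological replicates of 1 group, per the labels, whose antibody field names the tagged gene. The authors deposited narrowPeak lists for each replicate, for both pooled and for the optimal IDR-thresholded set, in ce10 (not used) and ce11, per the file notes. What aligner and peak caller were used, and how reads that match several places were handled, is not given in the sources used here. Signal values came from the peak caller run by the authors, and ranks were taken within a list, with ties broken by the deposited −log10 q-value and position. The deposited offset (another unit, in bp) gave the summit. The lists hold no read counts, so depth is unknown.

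Genes came from Ensembl release 115 (WBcel235, the ce11 assembly), and isotypes and sequences from RefSeq, with an isotype for 334 of 336 genes. Replicate summits were matched within 200 bp. Shares carry 95% Wilson intervals (SciPy 1.17.1 with pandas 2.3.3, NumPy 2.4.6 and Python 3.11.15; figures with Matplotlib 3.10.9). With 1 group no test was run, and the matching and counting code was tested on simulated data. The A box was shortened to 8 letters after the data were seen.

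Named were the 20 strongest members, the strongest per chromosome and isotype, the weakest, those at each limit, those with the largest and smallest rank differences, and the strongest with 2 genes or in introns. Genes of families, Phe, Cys, Trp, exon and promoter members and genes without a B box were named after their values were seen. The members and lists were chosen with earlier results of these data known. Alternatives were other distances, each replicate alone, 1 summit per interval, the stronger 15000 peaks, other matching of replicates and, added later, subsets of the members.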

Additional observations from a re-analysis of the deposited data

How the results depend on the processing

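Of 71 alternative values 26 moved beyond the interval of a share or the spread between replicates. The number of members was judged only by a limit of 1.5 times, and was 211 within 50 bp, 341 within 500 bp and 238 for the strongest peak of each gene, all outside the 250 to 303 of the replicates alone. With summits within 100 bp the median rank was 1934, the median position 23 and the share of X-linked genes with a peak 76.8%. Within 50 bp the rank was 1749, and peaks were found at 63.4% of genes, 66.0% of intronic and 69.2% of X-linked genes, with 14% of genes thresholded. Within 500 bp the rank was 2950 and these shares of genes with a peak were 82.4%, 83.5% and 89.5%. Among the stronger 15000 peaks the rank was 1911.

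Each replicate alone, its 750 strongest peaks standing for the thresholded set, gave 250 to 303 members, of which 16 to 16.2% were thresholded, with a median rank of 2791 to 3182.5 and a median position of 26 to 35. Peaks were then found at 68.8 to 79.2% of genes and 68.6 to 81.9% of intronic genes, and thresholded ones at 13.4 to 16.7%. The lower number of members and the lower shares are those of replicate 2, whose list is the shorter. The median rank of 3182.5 and the median position of 35 are also those of replicate 2. On X the share was 80.8% in each. The share of members in both replicates was 60.2% with summits matched within 100 bp, 33.2% within 50 bp, 87.8% with overlapping intervals and 10.2% within the 750 strongest.

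Chosen after seeing the data, the strongest peak of each gene gave 23.5% thresholded, a median rank of 1754 and 82.4% in both replicates, and leaving out promoter windows a median position of 23. Counting 1 summit per interval changed no value. No paired analysis was possible because there is 1 group. The causes were not tested. The unknown depth limits what an absent peak shows.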
